A study of Drosophila melanogaster with 15 samples.

Results

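The data described here are the response of wild-type fly heads to amphetamine (AMPH), measured by RNA-seq. They comprise the 8 WT libraries of a series of 15, namely 4 from flies fed AMPH and 4 from flies fed vehicle, chosen by strain and treatment as the sample records give them. WT is the isogenic w1118 strain of Drosophila melanogaster, which carries a white mutation and so has white eyes. All flies were males of 7 days that lived for 48 h in tubes on a food of agar and sucrose, made up with water for the vehicle group and with AMPH at 10 mM for the AMPH group. The other libraries of the series came from a mutant of the dopamine transporter DAT, kept and treated in the same way. Each library was made from polyadenylated RNA of 1 fly, so that libraries of a group are separate animals. The records call the tissue a whole brain in one place and an adult head in another, and the values below show that tissues outside the brain were in it. The 4 AMPH libraries were compared with vehicle replicates 2 to 4, the 3 vehicle libraries that the study's own comparison appears to have used, and vehicle replicate 1 was kept aside as a check.

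AMPH is a psychostimulant that enters nerve terminals through monoamine transporters and drives dopamine out of vesicles and out of the cell. A fly that eats it also meets it as a foreign chemical. In insects such chemicals are handled by cytochrome P450 enzymes, which oxidize them, by glutathione S-transferases and UDP-glycosyltransferases, which couple them to glutathione or a sugar, and by ABC transporters, which export the products. Feeding state is read in the fly by the insulin and TOR pathways. When they are low, the transcription factors FOXO and REPTOR are known to turn on genes that slow growth and release stored fat. A fly head holds brain and eyes, and also antennae, muscle, cuticle and a layer of fat body, the organ that serves as liver and adipose tissue.

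The libraries of the comparison held from 20.7 to 70.9 M reads on vehicle and from 38.6 to 62.8 M reads on AMPH, if the smallest step between values is 1 read, so that a transcript of 1 kilobase at 1 RPKM (reads scaled to transcript length in kilobases and to library size) rests on about 20.7 reads in the shallowest. Markers of the tissues in a head were present. The summed level of 7 neuronal markers was 902 to 996 RPKM on vehicle and 734 to 971 RPKM on AMPH, and 5 photoreceptor markers, ninaE among them, summed to 22939 to 42842 and 28732 to 38409.8 RPKM. The 4 muscle markers in the table fell outside one another's range, at 799.7 to 1157 RPKM on vehicle and 352 to 631 RPKM on AMPH, and so did the 5 antennal markers, at 4712 to 4894 and 2751 to 3398 RPKM. The 5 glial markers were at 567 to 718 and 444 to 536 RPKM. The sums of the 6 fat body markers overlapped, at 678 to 932 and 348 to 738 RPKM, while vehicle replicate 1 stood below the other vehicle libraries at 404 RPKM. Single fat body markers moved apart: apolpp and Tsf1 fell, bmm rose, and Lsp2, fit and FASN1 did not pass. The level of apolpp was 61.3 to 128 RPKM on vehicle, 8.87 to 15.8 RPKM on AMPH and 9.95 RPKM in vehicle replicate 1. In whole tissue, fewer cells of a type and less RNA per cell cannot be told apart.

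Feeding AMPH was followed by a change in a large part of the transcripts of the WT head. Of 10032 genes tested with limma on log2(RPKM + 1), 1780 (17.7%) passed an adjusted p of 0.1, the threshold of the study. They divided into 695 genes (6.93%) that were higher on AMPH and 1085 (10.8%) that were lower. The median size of the change among them was 0.61 on the log2 scale, and 410 changed by at least 1, of which 164 were higher and 246 lower. In 1733 of the 1780 genes the 4 AMPH libraries and the 3 vehicle libraries did not overlap. A call at this threshold nearly requires that, so it adds little to the call. The share without overlap over all genes tested is not given here. The median change over all genes tested was -0.04. Among the 1774 genes with the longest transcripts, of 3130 bases or more, it was -0.08, with 110 rises and 215 falls, and among the 1776 shortest, of up to 975 bases, 142 rose and 172 fell. The balance between rises and falls depended on scaling: higher genes were 39.0% of the calls as deposited, 48.6% (869 of 1788) when each library was centred on its median, and 49.6% (894 of 1801) after quantile normalization. When vehicle replicate 1 was added, 2521 genes passed, 1034 higher and 1487 lower, and 1696 of the 1780 genes passed in the same direction. The count depended on each vehicle library: without vehicle replicate 2, 3 or 4 it was 931, 903 or 896, and 659 genes passed in every one of the 7 fits that left out 1 library.

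**Figure D1:**
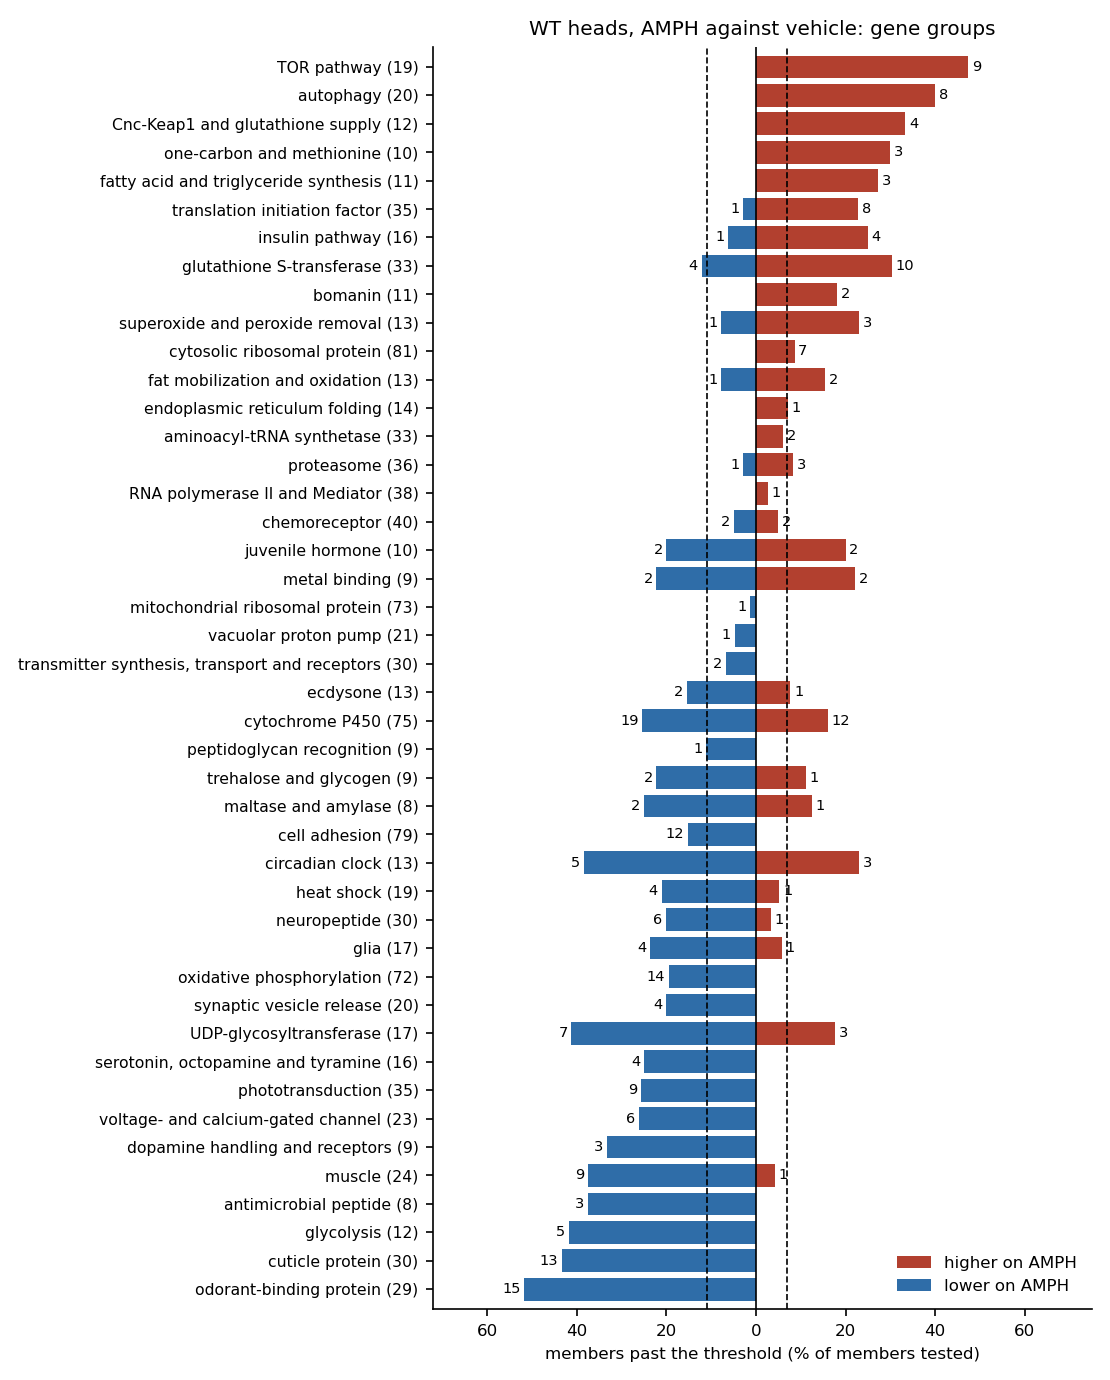
Members of 44 gene groups with at least 8 tested genes that passed an adjusted p of 0.1 in WT heads, as a share of the members tested (x axis, %, higher on AMPH to the right and lower to the left, number of members at the bar ends, members tested in brackets). The dashed lines mark the shares over all genes, 6.93% and 10.8%. TOR pathway and autophagy genes have the longest bars to the right, and odorant-binding and cuticle proteins the longest to the left.

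The groups of genes are described below by role. For each gene, values of the 3 vehicle libraries are given in the order of replicates 2 to 4 and those of the 4 AMPH libraries in the order of replicates 1 to 4, followed by the change in log2(RPKM + 1) with its standard error and the adjusted p of limma. A positive change is higher on AMPH. For every gene given in this way that passed the threshold, with the exception of Drs, the 4 AMPH libraries lay all above or all below the 3 vehicle libraries. The + 1 shrinks the changes of genes near or under 1 RPKM. Each count of members called in a group is to be read against the shares over all genes tested, 6.93% higher and 10.8% lower.

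Single glutathione S-transferases rose by several fold. GstD2 (FBgn0010038, chr3R:8197693-8198426 on dm3), a delta class enzyme, was at 6.901, 7.75 and 5.35 RPKM on vehicle and at 69.5, 115, 91.7 and 61.6 RPKM on AMPH (3.45 ± 0.22, adjusted p = 0.000373). Its neighbour in the class, GstD5, was at 0.152, 0.815 and 0.833 RPKM on vehicle and at 49.3, 34.9, 20.3 and 26.7 RPKM on AMPH (4.36 ± 0.30, adjusted p = 0.000395), and so was under 1 RPKM in each vehicle library. It entered the test through the AMPH libraries alone, as did 32 of the 1780 genes called, and could not have been tested had it been low there. The epsilon class member GstE7 was at 6.57, 12.04 and 11.6 RPKM on vehicle and at 53.1, 53.3, 67.2 and 50.4 RPKM on AMPH (2.397 ± 0.20, adjusted p = 0.00106), and GstE8 was at 2.94, 4.63 and 3.31 RPKM on vehicle and at 18.3, 30.6, 33.97 and 20.2 RPKM on AMPH (2.503 ± 0.23, adjusted p = 0.00112). For all 4 genes every AMPH library lay above every vehicle library, and all 4 passed in each fit that left out 1 library. Vehicle replicate 1 was at 18.4, 3.14, 11.2 and 3.23 RPKM, below the AMPH libraries in each case. Of 33 members tested, 10 rose (30.3%, against 6.93% of all genes) and 4 fell (12.1%, against 10.8%). The median change was -0.04, so that the rises were those of part of the family. The 10 were 5 delta, 4 epsilon and 1 theta class enzyme. GstE12 was among the 4 that fell, at 355, 389 and 357 RPKM on vehicle and at 199.5, 266, 256 and 201 RPKM on AMPH (-0.68 ± 0.15, adjusted p = 0.0271), and was not past the threshold without WT vehicle replicate 3, with an adjusted p of up to 0.108. The delta and epsilon enzymes lie in clusters of similar genes, and how reads shared by similar copies were counted is not given in the sources used here.

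Cytochrome P450 genes moved in both directions. Of 75 tested, 12 rose (16.0%, against 6.93% of all genes) and 19 fell (25.3%, against 10.8%), and the median change was -0.03. The fits that left out 1 library called 8 to 18 rises and 9 to 18 falls. Cyp6a8 (FBgn0013772, chr2R:10774673-10776514), which drugs such as caffeine and phenobarbital are known to induce in flies, was at 24.3, 29.5 and 21.5 RPKM on vehicle and at 148, 688, 834 and 239 RPKM on AMPH (3.87 ± 0.57, adjusted p = 0.00583). AMPH replicates 2 and 3 were the high ones, and replicate 1, the lowest, was still above each vehicle library. Cyp12c1, of the mitochondrial clade, was at 9.24, 10.4 and 7.71 RPKM on vehicle and at 58.2, 159, 99.96 and 73.1 RPKM on AMPH (3.19 ± 0.31, adjusted p = 0.0012). Cyp12d1-p followed the same order of libraries, at 0.514, 0.616 and 0.588 RPKM on vehicle and at 4.33, 48.1, 36.9 and 10.3 RPKM on AMPH (3.54 ± 0.70, adjusted p = 0.019). Its near-identical copy Cyp12d1-d was at 0.506, 0.460 and 0.517 RPKM on vehicle and at 2.62, 35.4, 27.5 and 7.14 RPKM on AMPH, and since reads of the pair may be shared, the 2 values are not independent. Both were tested through the AMPH libraries alone, as GstD5 was. Cyp12d1-d was not past the threshold without WT vehicle replicate 3 or 4, with an adjusted p of up to 0.105. Cyp4p1 had a smaller and more even rise, at 32.7, 50.3 and 36.8 RPKM on vehicle and at 130.03, 139.6, 133 and 120.1 RPKM on AMPH (1.71 ± 0.15, adjusted p = 0.00106).

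Among the P450 genes that fell, Cyp4d21, known as sex-specific enzyme 1 for its male-biased level in the head, was at 45.4, 58.6 and 49.4 RPKM on vehicle and at 12.2, 11.7, 8.63 and 16.1 RPKM on AMPH (-2.01 ± 0.19, adjusted p = 0.00112). Cyp313a1 was at 238, 368 and 219 RPKM on vehicle and at 63.1, 86.1, 62.7 and 89.7 RPKM on AMPH (-1.84 ± 0.22, adjusted p = 0.00258), and Cyp305a1 was at 41.4, 48.5 and 27.6 RPKM on vehicle and at 15.5, 17.2, 12.1 and 13.9 RPKM on AMPH (-1.33 ± 0.20, adjusted p = 0.00583). None of these 3 overlapped between the groups, and vehicle replicate 1 was near the other vehicle libraries, at 69.9, 276 and 31.4 RPKM.

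UDP-glycosyltransferases divided in a similar way, with 3 rises (17.6%, against 6.93% of all genes) and 7 falls (41.2%, against 10.8%) among 17 tested. The median change was -0.27. Ugt49C1 was at 40.8, 46.9 and 47.2 RPKM on vehicle and at 112, 149, 163 and 149 RPKM on AMPH (1.64 ± 0.15, adjusted p = 0.00106), and Ugt49B1 was at 17.5, 14.6 and 12.6 RPKM on vehicle and at 30.6, 94.8, 64.4 and 44.8 RPKM on AMPH (1.800 ± 0.34, adjusted p = 0.0157). Ugt35B1 moved the other way, at 105, 97.7 and 101 RPKM on vehicle and at 58.3, 34.9, 41.5 and 39.5 RPKM on AMPH (-1.22 ± 0.17, adjusted p = 0.0043). Of 5 drug efflux transporters, MRP, an ABC transporter that carries glutathione conjugates, was at 59.8, 69.7 and 64.5 RPKM on vehicle and at 140.4, 109.7, 124 and 165 RPKM on AMPH (1.03 ± 0.15, adjusted p = 0.00575). Mrp4 rose as well, by a log2 change of 0.54. Mdr65, the ABC transporter that glia of the blood-brain barrier use to keep drugs out of the fly brain, fell and was at 10.4, 11.8 and 10.9 RPKM on vehicle and at 7.63, 6.03, 6.15 and 7.13 RPKM on AMPH (-0.64 ± 0.11, adjusted p = 0.0102). The aldehyde oxidase AOX1 was at 32.5, 32.2 and 31.6 RPKM on vehicle and at 252, 585, 347 and 291 RPKM on AMPH (3.403 ± 0.26, adjusted p = 0.000942), with 3 vehicle libraries within 1 RPKM of one another and every AMPH library far above them.

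**Figure D2:**
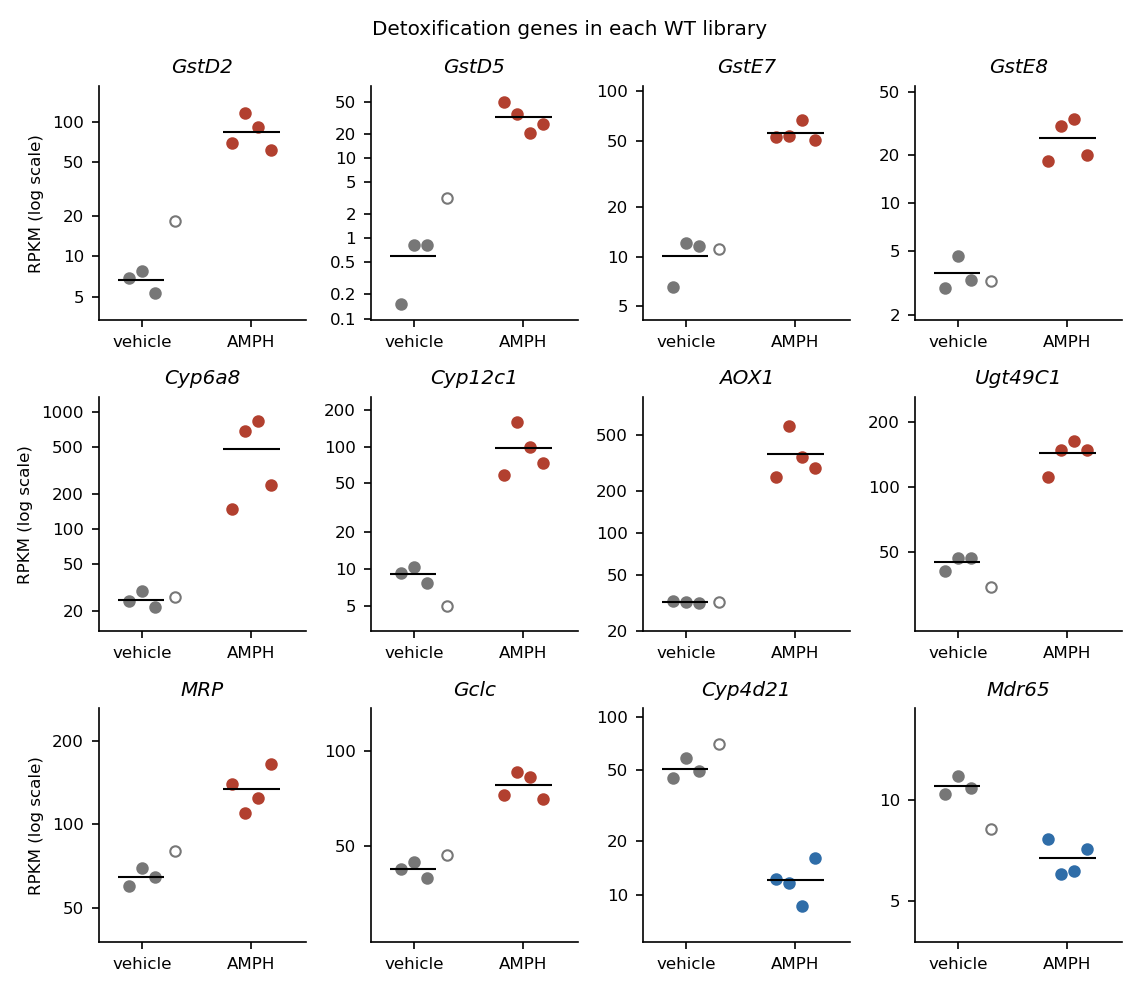
Level of 12 detoxification genes in each WT library (y axis, RPKM on a log scale). Filled grey points are vehicle replicates 2 to 4, the open point is vehicle replicate 1, coloured points are the 4 AMPH libraries (red where the gene rose, blue where it fell) and bars are group means. Cyp4d21 and Mdr65 fell, and the other 10 genes rose.

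Genes of the Cnc-Keap1 pathway, which senses electrophiles and raises the supply of glutathione, rose in 4 of 12 cases (33.3%, against 6.93% of all genes). No member fell. Keap1, the sensor, was at 6.84, 7.79 and 6.37 RPKM on vehicle and at 13.6, 16.2, 13.7 and 13.2 RPKM on AMPH (0.92 ± 0.11, adjusted p = 0.00245). Gclc, the catalytic subunit of glutamate-cysteine ligase that limits glutathione synthesis, was at 42.3, 44.6 and 39.6 RPKM on vehicle and at 72.8, 85.7, 83.1 and 70.7 RPKM on AMPH (0.87 ± 0.11, adjusted p = 0.00322). The transcription factor cnc itself had a change of 0.56 (adjusted p = 0.0395) and was not past the threshold without WT vehicle replicate 2 or 4, with an adjusted p of up to 0.14. Its partner maf-S had a change of 0.49 (adjusted p = 0.0416) and was not past the threshold without WT vehicle replicate 2, 3 or 4, with an adjusted p of up to 0.143. Among 13 genes for the removal of superoxide and peroxides, 3 rose (23.1%, against 6.93% of all genes) and 1 fell (7.69%, against 10.8%). Gtpx, a glutathione peroxidase homologue, was at 134, 138 and 126 RPKM on vehicle and at 242, 329, 294 and 259 RPKM on AMPH (1.07 ± 0.14, adjusted p = 0.0035), and the peroxiredoxin Prx6b was at 5.84, 9.33 and 10.04 RPKM on vehicle and at 36.1, 39.3, 18.3 and 17.3 RPKM on AMPH (1.55 ± 0.32, adjusted p = 0.0224). Sod2, the superoxide dismutase of mitochondria, went down, at 186, 194 and 237 RPKM on vehicle and at 140.4, 144, 131 and 104 RPKM on AMPH (-0.66 ± 0.15, adjusted p = 0.0326), and was not past the threshold without WT vehicle replicate 4, with an adjusted p of up to 0.121.

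Iron-binding proteins moved apart. Tsf1, the transferrin of the haemolymph that fat body secretes, was at 472, 448 and 514 RPKM on vehicle and at 197, 193, 177 and 129 RPKM on AMPH (-1.47 ± 0.17, adjusted p = 0.00245). The ferritin heavy chain Fer1HCH was at 329, 325 and 308 RPKM on vehicle and at 455, 573, 587 and 429 RPKM on AMPH (0.66 ± 0.16, adjusted p = 0.0355), and was not past the threshold without WT vehicle replicate 2, 3 or 4, with an adjusted p of up to 0.124. Of 19 heat shock genes, 4 fell and 1 rose, with a median change of -0.57 and 2 to 12 falls in the fits that left out 1 library. Hsp83, the fly HSP90, was at 354, 425 and 368 RPKM on vehicle and at 176, 195, 219 and 152 RPKM on AMPH (-1.05 ± 0.16, adjusted p = 0.00593). DnaJ-1, an HSP40 co-chaperone, was at 54.7, 75.6 and 65.8 RPKM on vehicle and at 49.6, 32.8, 32.99 and 30.9 RPKM on AMPH (-0.83 ± 0.19, adjusted p = 0.0278), and was not past the threshold without WT vehicle replicate 3, with an adjusted p of up to 0.106. Hsp22, a small chaperone of mitochondria, was the member that rose, at 16.2, 22.4 and 11.3 RPKM on vehicle and at 50.4, 57.1, 31.6 and 25.4 RPKM on AMPH (1.23 ± 0.32, adjusted p = 0.0447), and was not past the threshold without WT vehicle replicate 2 or 4, with an adjusted p of up to 0.154. Proteasome subunits leaned upwards, with 34 of 36 changes above 0 and a median of 0.31, but only 3 rose and 1 fell, close to or under the shares over all genes. With vehicle replicate 1 added, 12 of the 36 rose.

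Genes of the TOR pathway, which couples growth to amino acids and energy, held 9 rises among 19 tested (47.4%, against 6.93% of all genes) and no fall, with 4 to 9 rises in the fits that left out 1 library. Thor (FBgn0261560, chr2L:3478434-3479612) encodes 4E-BP, which blocks the start of translation when TOR is low, and was at 179.5, 127 and 129 RPKM on vehicle and at 626, 1065, 773 and 569 RPKM on AMPH (2.35 ± 0.24, adjusted p = 0.00151). Sesn, the sestrin that restrains TOR, was at 45.6, 46.8 and 45.2 RPKM on vehicle and at 67.9, 71.99, 82.4 and 80.02 RPKM on AMPH (0.703 ± 0.10, adjusted p = 0.00581). REPTOR, a transcription factor that TOR holds in the cytoplasm, was at 21.2, 18.3 and 17.9 RPKM on vehicle and at 30.5, 46.7, 35.5 and 38.9 RPKM on AMPH (0.94 ± 0.15, adjusted p = 0.00804). The pseudokinase trbl, which restrains Akt, was at 8.46, 9.17 and 8.997 RPKM on vehicle and at 15.96, 20.6, 21.1 and 20.8 RPKM on AMPH (1.05 ± 0.12, adjusted p = 0.00203), with vehicle replicate 1 between the groups at 12.2 RPKM. For these 4 genes no AMPH library overlapped a vehicle library of the comparison, and each passed in every fit that left out 1 library. S6k, the kinase through which TOR promotes translation, had a smaller change, at 21.5, 24.1 and 20.9 RPKM on vehicle and at 26.6, 35.5, 35.5 and 29.2 RPKM on AMPH (0.49 ± 0.13, adjusted p = 0.0487), and was not past the threshold without WT vehicle replicate 2 or 4 or WT AMPH replicate 2 or 3, with an adjusted p of up to 0.155.

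In the insulin pathway 4 of 16 genes rose (25.0%, against 6.93% of all genes) and 1 fell. InR, the insulin receptor and a known target of FOXO, was at 7.66, 7.58 and 5.77 RPKM on vehicle and at 12.8, 22.2, 15.9 and 15.3 RPKM on AMPH (1.11 ± 0.18, adjusted p = 0.00869). The receptor substrate chico was at 21.6, 22.2 and 17.3 RPKM on vehicle and at 30.8, 29.1, 29.6 and 32.95 RPKM on AMPH (0.57 ± 0.11, adjusted p = 0.0177), and the kinase Akt was at 15.8, 16.4 and 12.5 RPKM on vehicle and at 19.9, 28.7, 28.3 and 23.1 RPKM on AMPH (0.71 ± 0.16, adjusted p = 0.0276), although Akt was not past the threshold without WT vehicle replicate 4, with an adjusted p of up to 0.101. The ligands moved apart. Ilp5, an insulin that a small set of neurosecretory cells of the brain releases, was at 15.1, 13.01 and 18.03 RPKM on vehicle and at 5.399, 3.28, 1.84 and 3.57 RPKM on AMPH (-1.903 ± 0.25, adjusted p = 0.00373), and vehicle replicate 1, at 7.19 RPKM, lay nearer the AMPH libraries. Ilp3, made by the same cells, was at 4.15, 3.15 and 8.12 RPKM on vehicle and at 9.39, 10.4, 8.66 and 11.02 RPKM on AMPH (0.903 ± 0.25, adjusted p = 0.0536) and was not past the threshold without WT vehicle replicate 2 or 3 or WT AMPH replicate 2 or 4, with an adjusted p of up to 0.162. Autophagy genes, which FOXO and REPTOR are known to regulate in part, rose in 8 of 20 cases with no fall and a median change of 0.23. The changes were small. Atg18b was at 21.7, 20.1 and 19.9 RPKM on vehicle and at 29.5, 35.9, 29.2 and 32.6 RPKM on AMPH (0.603 ± 0.10, adjusted p = 0.0107), and Atg101 was at 28.4, 30.9 and 24.3 RPKM on vehicle and at 41.6, 38.8, 40.9 and 39.1 RPKM on AMPH (0.51 ± 0.10, adjusted p = 0.0207). These were the 2 autophagy genes that passed in each fit that left out 1 library, in which the count ran from 2 to 9.

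Genes of fat storage and release changed as well. The triglyceride lipase bmm (FBgn0036449, chr3L:14769596-14779523), another known target of FOXO, was at 34.1, 29.5 and 27.1 RPKM on vehicle and at 56.4, 120.5, 126 and 101 RPKM on AMPH (1.65 ± 0.27, adjusted p = 0.00843), and vehicle replicate 1 was at 20.1 RPKM, below all of them. Of 11 genes for the synthesis of fatty acids and triglycerides, 3 rose (27.3%, against 6.93% of all genes). The fits that left out 1 library called 1 to 4 rises. The 3 included SREBP, the transcription factor of that programme, which passed in each of those fits. SREBP was at 89.5, 105 and 97.6 RPKM on vehicle. On AMPH it was at 131, 191, 189.7 and 151 RPKM (0.75 ± 0.16, adjusted p = 0.0244). For mino and Dgat2, which also rose, the groups overlapped. These genes were not past the threshold in 5 and 6 of those fits, with an adjusted p of up to 0.199 and 0.229. Akh, the glucagon-like hormone of the corpora cardiaca, was at 287, 2.79 and 26.4 RPKM on vehicle and at 0.441, 0.635, 0.435 and 0.565 RPKM on AMPH (-4.36 ± 1.19, adjusted p = 0.0541). It reached 1 RPKM in the 3 vehicle libraries alone, so that it was untested without any one of them, and it was not past the threshold without WT AMPH replicate 2, 3 or 4, with an adjusted p of up to 0.109. The vehicle libraries of Akh thus differed widely from one another, and CG14075 had nearly the same profile, at 274, 2.504 and 27.7 RPKM on vehicle and at 0.998, 1.07, 1.46 and 1.63 RPKM on AMPH (-3.73 ± 1.20, adjusted p = 0.0873). For both, vehicle replicates 2 and 4 were high, while vehicle replicate 1 was at 2.78 and 2.02 RPKM, close to replicate 3. CG14075 was not past the threshold without WT vehicle replicate 2 or 4 or WT AMPH replicate 1, 2, 3 or 4, with an adjusted p of up to 0.202, and with vehicle replicate 1 added its adjusted p was 0.153.

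One-carbon metabolism held some of the largest rises. Gnmt (FBgn0038074, chr3R:8500331-8501806), glycine N-methyltransferase, which uses up S-adenosylmethionine, was at 22.5, 21.1 and 14.3 RPKM on vehicle and at 278, 1409, 1648 and 421 RPKM on AMPH (5.18 ± 0.61, adjusted p = 0.00245). Nmdmc, a mitochondrial enzyme of folate metabolism, was at 12.98, 12.2 and 4.95 RPKM on vehicle and at 17.9, 162, 268 and 64.4 RPKM on AMPH (3.06 ± 0.83, adjusted p = 0.0529), and was not past the threshold without WT vehicle replicate 2, 3 or 4 or WT AMPH replicate 2, with an adjusted p of up to 0.177. Sam-S, which makes S-adenosylmethionine, was at 91.7, 90.8 and 78.1 RPKM on vehicle and at 102, 233, 225 and 167 RPKM on AMPH (0.99 ± 0.28, adjusted p = 0.0574), and was not past the threshold without WT vehicle replicate 2, 3 or 4 or WT AMPH replicate 2, 3 or 4, with an adjusted p of up to 0.178. All 10 members of this group had a change above 0, with a median of 0.90, and 3 of them passed the threshold. In Gnmt and Nmdmc AMPH replicates 2 and 3 were the high libraries and replicate 1 the lowest. Vehicle replicate 1 had Gnmt at 0.468 RPKM, far below the other vehicle libraries.

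Stored protein and carbohydrate genes mostly fell or did not pass. Lsp1beta, a hexamerin that fat body secretes as an amino acid store, was at 34.5, 20.5 and 23.5 RPKM on vehicle and at 0.642, 0.747, 1.58 and 1.05 RPKM on AMPH (-3.75 ± 0.21, adjusted p = 0.000373). Pepck1, which commits substrates to new glucose, was at 147, 36.5 and 197 RPKM on vehicle and at 2.99, 29.4, 4.48 and 16.1 RPKM on AMPH (-3.32 ± 0.81, adjusted p = 0.0376), and was not past the threshold without WT vehicle replicate 2 or 4, with an adjusted p of up to 0.139. Vehicle replicate 1 did not resemble the other vehicle libraries for these genes, with Lsp1beta at 0.454 and Pepck1 at 3.06 RPKM, and with it added the adjusted p was 0.07 and 0.254. The same library was low for the fat body markers as a whole, and the part this played was not tested. The alpha-glucosidase tobi, a known target of brain insulin, was at 3.76, 3.34 and 2.23 RPKM on vehicle and at 0.772, 0.848, 0.507 and 0.876 RPKM on AMPH (-1.22 ± 0.17, adjusted p = 0.00511). It reached 1 RPKM in the 3 vehicle libraries alone, as did 42 of the 1780 genes called, so that it could not have been tested had it been low there, and it was left untested without any one of them. With vehicle replicate 1 added, where tobi was at 0.448 RPKM, its adjusted p was 0.127. Glyp, the glycogen phosphorylase, was at 194, 230.2 and 219.5 RPKM on vehicle and at 111, 134, 131 and 118 RPKM on AMPH (-0.79 ± 0.12, adjusted p = 0.00691). Mal-B2, of the maltases, went the other way, from a mean of 56.7 to 362 RPKM (2.24 ± 0.69, adjusted p = 0.0766). Tret1-2, of the trehalose and glycogen genes, rose from 2.00 to 5.64 RPKM (1.07 ± 0.29, adjusted p = 0.0525). In the fits that left out 1 library their adjusted p was up to 0.21 and 0.157.

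**Figure D3:**
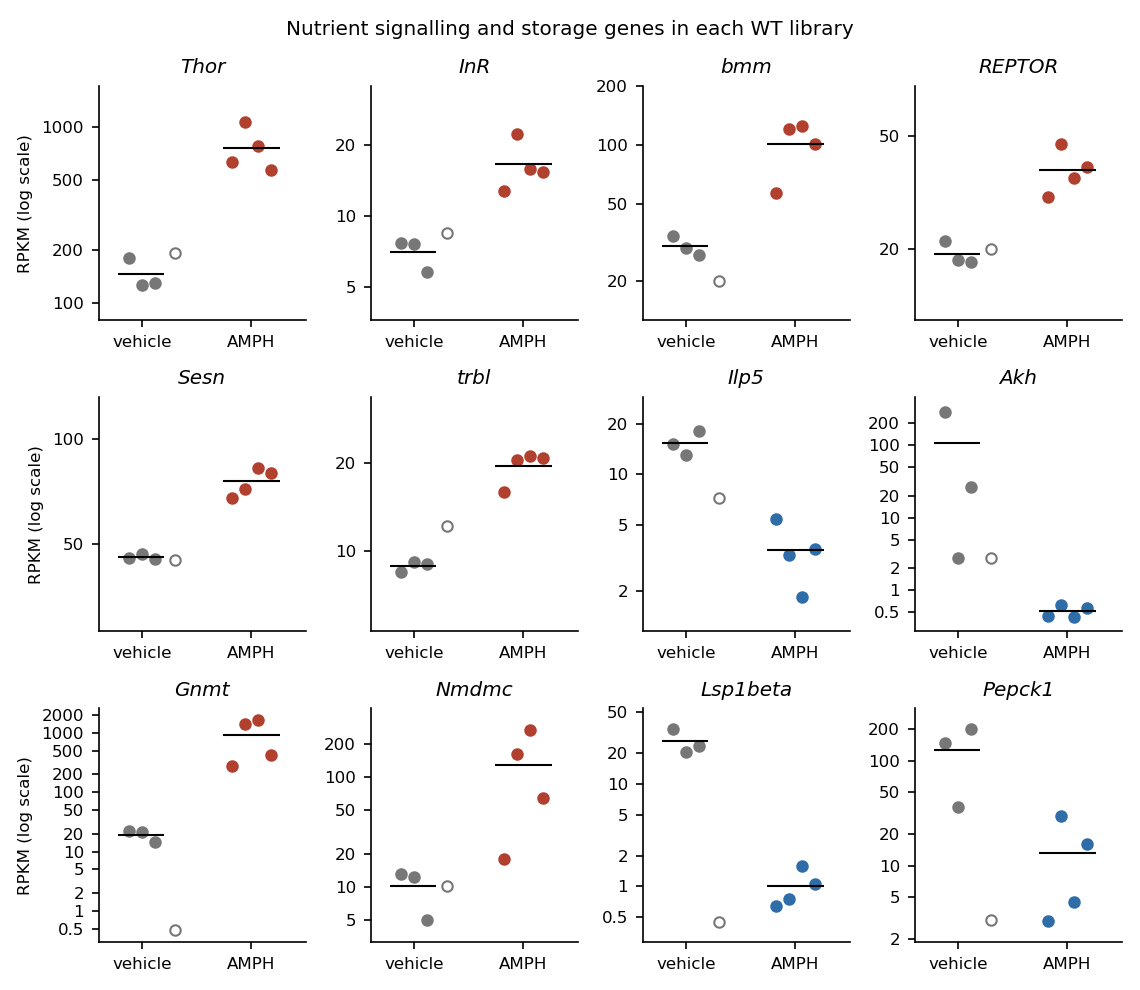
Level of 12 nutrient signalling and storage genes in each WT library (y axis, RPKM on a log scale). Points and bars are as in the plot of detoxification genes. Thor, InR, bmm, REPTOR, Sesn and trbl separate the groups with little spread, while Akh spans 2.79 to 287 RPKM within the vehicle group and the open point of vehicle replicate 1 lies with the AMPH libraries for Lsp1beta and Pepck1.

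The translation machinery rose in part. Of 35 initiation factors, 8 rose (22.9%, against 6.93% of all genes) and 1 fell (2.86%, against 10.8%), with 30 changes above 0 and a median of 0.20. Of the 8, 6 were subunits of eIF3, the complex that prepares the small ribosomal subunit for a messenger RNA. The subunit eIF3l was at 134, 129 and 117 RPKM on vehicle and at 187, 217, 221 and 205 RPKM on AMPH (0.71 ± 0.12, adjusted p = 0.00883), and eIF3m was at 181, 172 and 155 RPKM on vehicle and at 233, 260.4, 271 and 263 RPKM on AMPH (0.602 ± 0.12, adjusted p = 0.0182). The subunit eIF3h was at 126, 128 and 118 RPKM on vehicle and at 157, 210.3, 222 and 175 RPKM on AMPH (0.61 ± 0.15, adjusted p = 0.0366), and was not past the threshold without WT vehicle replicate 2, 3 or 4, with an adjusted p of up to 0.128. Cytosolic ribosomal proteins, whose transcripts were among the most abundant, rose in 7 of 81 cases (8.64%, against 6.93% of all genes) and fell in none, with a median change of 0.18 and 66 changes above 0. RpL15 was at 682, 696 and 523 RPKM on vehicle and at 988, 1060.3, 1069 and 1159 RPKM on AMPH (0.76 ± 0.16, adjusted p = 0.0249), and was the one ribosomal gene that passed in every fit that left out 1 library. RpL10 was at 827, 766 and 614 RPKM on vehicle and at 1009.7, 1521, 1308 and 1354 RPKM on AMPH (0.81 ± 0.20, adjusted p = 0.039), and was not past the threshold without WT vehicle replicate 3 or 4, with an adjusted p of up to 0.141. The count of ribosomal rises ran from 1 to 8 in those fits, and was 17 of 82 with vehicle replicate 1 added and 4 of 81 after quantile normalization.

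Mitochondrial genes leaned the other way. Subunits of oxidative phosphorylation fell in 14 of 72 cases (19.4%, against 10.8% of all genes) and rose in none, with a median change of -0.34 and 67 changes below 0. Median centring left 8 falls beside 2 rises. ND-B15, a subunit of complex I, was at 118, 127 and 174 RPKM on vehicle and at 90.3, 90.2, 68.5 and 74.2 RPKM on AMPH (-0.77 ± 0.17, adjusted p = 0.0278), and SdhC, of complex II, was at 148, 154 and 195 RPKM on vehicle and at 114, 118, 99.8 and 111 RPKM on AMPH (-0.57 ± 0.13, adjusted p = 0.0316) but was not past the threshold without WT vehicle replicate 4, with an adjusted p of up to 0.101. Vehicle replicate 4 was the highest library for both. Mitochondrial ribosomal proteins had 1 fall among 73, with a median of -0.14 and 56 changes below 0. Glycolytic enzymes fell in 5 of 12 cases (41.7%, against 10.8% of all genes), with a median change of -0.46. Pfk, phosphofructokinase, was at 83.96, 98.3 and 96.7 RPKM on vehicle and at 58.6, 65.1, 69.8 and 64.9 RPKM on AMPH (-0.52 ± 0.11, adjusted p = 0.0228), and Pglym78, phosphoglycerate mutase, was at 237, 234 and 337 RPKM on vehicle and at 140.1, 167, 157 and 105 RPKM on AMPH (-0.92 ± 0.20, adjusted p = 0.0268). The fits that left out 1 library called 2 to 14 falls in oxidative phosphorylation and 2 to 5 in glycolysis.

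**Figure D4:**
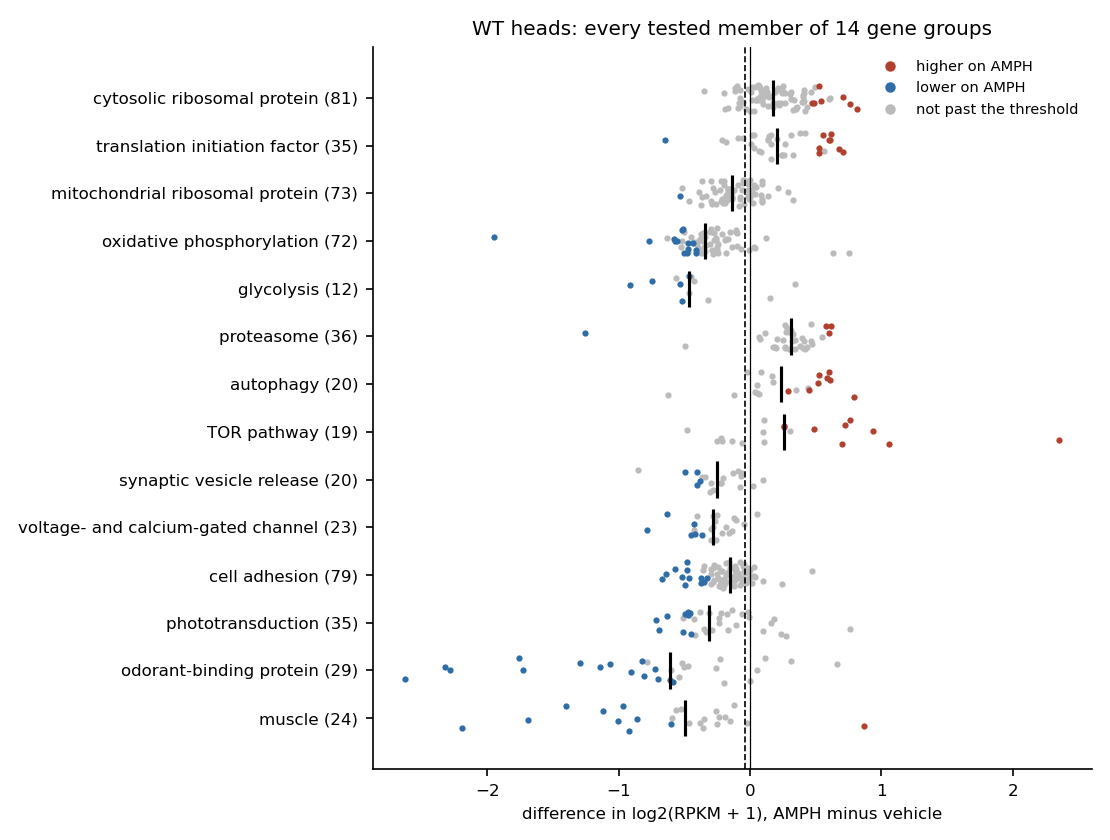
Change of every tested member of 14 gene groups in WT heads (x axis, difference in log2(RPKM + 1), AMPH minus vehicle; number of members in brackets). Red and blue points passed an adjusted p of 0.1, grey points did not, black bars are group medians and the dashed line is the median over all genes, -0.04. Ribosomal, initiation factor, proteasome, autophagy and TOR genes have medians above the dashed line, and the other groups medians below it.

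Genes through which dopamine is made and stored fell. All 9 genes of dopamine handling and its receptors had a change below 0, with a median of -0.40. Of these, 3 (33.3%, against 10.8% of all genes) passed the threshold in the fit and in every fit that left out 1 library. The first is ple, tyrosine hydroxylase, which limits dopamine synthesis. It was at 11.7, 11.4 and 15.4 RPKM on vehicle and at 8.47, 4.88, 5.86 and 4.91 RPKM on AMPH (-0.996 ± 0.19, adjusted p = 0.0162). Pu, the GTP cyclohydrolase that supplies the cofactor of that enzyme, was at 87.5, 73.3 and 69.2 RPKM on vehicle and at 48.3, 43.9, 53.1 and 48.7 RPKM on AMPH (-0.65 ± 0.12, adjusted p = 0.0141). Vmat (FBgn0260964, chr2R:9405477-9420494), which loads monoamines into vesicles, was at 70.7, 61.9 and 68.4 RPKM on vehicle and at 35.7, 37.7, 41.2 and 35.8 RPKM on AMPH (-0.82 ± 0.10, adjusted p = 0.00296), with the AMPH libraries close together and well under the vehicle libraries. DAT itself, the transporter that AMPH acts on, was low and did not pass, at 3.02, 2.18 and 2.99 RPKM on vehicle and at 2.32, 1.93, 1.99 and 3.299 RPKM on AMPH (-0.15 ± 0.17, adjusted p = 0.619), and the groups overlapped. In flies dopamine is inactivated by coupling, in part in glia, and 3 of 5 genes of that route fell. The N-acetyltransferase Dat, a different gene from the transporter DAT, was at 95.4, 82.9 and 85.9 RPKM on vehicle and at 46.8, 34.2, 34.1 and 32.3 RPKM on AMPH (-1.25 ± 0.14, adjusted p = 0.00232), with AMPH replicate 1 above the other AMPH libraries.

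Serotonin, octopamine and tyramine genes fell in 4 of 16 cases (25.0%, against 10.8% of all genes) and rose in none. The median change was -0.28, and centring left 2 falls. The tyramine receptor TyrRII was at 2.36, 2.68 and 2.14 RPKM on vehicle and at 0.887, 1.18, 0.927 and 1.32 RPKM on AMPH (-0.71 ± 0.14, adjusted p = 0.0182). The serotonin receptor 5-HT2A was at 26.4, 35.5 and 30.8 RPKM on vehicle and at 19.8, 16.3, 18.04 and 22.3 RPKM on AMPH (-0.66 ± 0.14, adjusted p = 0.0225). Ion channels grouped here as voltage- or calcium-gated, with the inward rectifier Irk2 counted among them, fell in 6 of 23 cases (26.1%, against 10.8% of all genes). None rose, and the median was -0.28. Irk2, an inwardly rectifying potassium channel, was at 46.2, 46.7 and 42.6 RPKM on vehicle and at 27.8, 22.01, 24.9 and 28.9 RPKM on AMPH (-0.78 ± 0.12, adjusted p = 0.00578). Genes of vesicle release had 4 falls among 20, which include stnA and stnB, a pair that shares 1 transcript and 1 value. The active zone protein brp was at 83.7, 66.5 and 72.8 RPKM on vehicle and at 61.3, 48.4, 59.6 and 42.2 RPKM on AMPH (-0.49 ± 0.16, adjusted p = 0.0842), was not past the threshold without WT vehicle replicate 2, 3 or 4 or WT AMPH replicate 2 or 4, with an adjusted p of up to 0.242, and did not pass after centring (adjusted p = 0.108) or quantile normalization (0.117). The fits that left out 1 library called 0 to 10 falls in vesicle release and 1 to 11 among the channels, and quantile normalization left 1 and 3. Genes for transmitter synthesis, transport and receptors had 2 falls among 30, under the share over all genes. These small falls went along with a fall of elav and brp among the 7 neuronal markers, brp being counted in vesicle release as well. The markers nSyb, Syt1, ChAT, VGlut and Gad1 did not pass, and the part that a lower share of neuronal RNA played was not tested.

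Of 6 genes that neuronal activity is known to raise, 4 rose (66.7%, against 6.93% of all genes) and none fell. Arc1, whose product forms capsid-like particles that carry RNA across synapses, was at 174, 289 and 210.2 RPKM on vehicle and at 911, 688, 333 and 459 RPKM on AMPH (1.34 ± 0.35, adjusted p = 0.046). It was not past the threshold without WT vehicle replicate 2 or 4 or WT AMPH replicate 2, with an adjusted p of up to 0.151. Arc2, its neighbour, was at 10.5, 20.5 and 20.9 RPKM on vehicle and at 33.5, 35.4, 41.4 and 39.1 RPKM on AMPH (1.12 ± 0.22, adjusted p = 0.019) and passed in every fit that left out 1 library. Hr38, the fly homologue of the NR4A nuclear receptors, was at 3.004, 3.52 and 2.82 RPKM on vehicle and at 4.24, 5.26, 4.396 and 7.22 RPKM on AMPH (0.59 ± 0.17, adjusted p = 0.066), and was not past the threshold without WT vehicle replicate 2, 3 or 4 or WT AMPH replicate 2, with an adjusted p of up to 0.187. Neuropeptide genes had 6 falls (20%, against 10.8% of all genes) and 1 rise among 30, and the fits that left out 1 library called 1 to 7 falls. Nplp3, annotated as a neuropeptide-like precursor, was at 178, 199 and 226 RPKM on vehicle and at 9.07, 21.2, 39.8 and 34.6 RPKM on AMPH (-3.07 ± 0.44, adjusted p = 0.00506), and SIFa was at 20.7, 17.1 and 17.3 RPKM on vehicle and at 11.4, 6.64, 9.74 and 13.8 RPKM on AMPH (-0.802 ± 0.21, adjusted p = 0.0477), with the latter not past the threshold without WT vehicle replicate 2, 3 or 4, with an adjusted p of up to 0.151.

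Glial genes fell in 4 of 17 cases (23.5%, against 10.8% of all genes) and rose in 1 (5.88%, against 6.93%), with a median change of -0.38. The surface protein wrapper was at 36.9, 23.03 and 38.4 RPKM on vehicle and at 8.49, 4.98, 8.64 and 9.30 RPKM on AMPH (-1.93 ± 0.24, adjusted p = 0.00299). The gap junction subunit Inx2 was at 21.1, 21.6 and 22.6 RPKM on vehicle and at 11.3, 13.9, 12.5 and 12.5 RPKM on AMPH (-0.75 ± 0.10, adjusted p = 0.00323), and bdl, an immunoglobulin domain protein of glia in the visual system, was at 167, 159 and 181 RPKM on vehicle and at 117, 98.6, 105 and 88.3 RPKM on AMPH (-0.72 ± 0.13, adjusted p = 0.0119). Mdr65, described above, was the other. None of the 5 glial markers summed above, repo, moody, Gs2, alrm and nrv2, passed by itself. Their changes ran from -0.22 for moody to -0.46 for nrv2. The share of glial RNA in each library was not tested. Cell adhesion molecules fell in 12 of 79 cases (15.2%, against 10.8% of all genes) and rose in none, with a median of -0.16 and 71 changes below 0. Fas2, which holds axons together, was at 24.9, 30.4 and 32.9 RPKM on vehicle and at 17.5, 22.04, 16.6 and 16.3 RPKM on AMPH (-0.67 ± 0.14, adjusted p = 0.0225), and side-VIII was at 25.05, 23.5 and 22.04 RPKM on vehicle and at 17.5, 15.3, 17.03 and 16.7 RPKM on AMPH (-0.48 ± 0.09, adjusted p = 0.0166).

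Part of the phototransduction genes and of the odorant-binding proteins fell as well. Phototransduction genes fell in 9 of 35 cases (25.7%, against 10.8% of all genes), or in 3 to 9 in the fits that left out 1 library, with a median change of -0.32 and no rise. The lipid transfer protein rdgB was at 50.9, 50.2 and 59.5 RPKM on vehicle and at 33.5, 34.97, 33.3 and 34.9 RPKM on AMPH (-0.63 ± 0.10, adjusted p = 0.00708), the opsin Rh7 was at 5.65, 5.99 and 6.07 RPKM on vehicle and at 3.64, 3.28, 2.81 and 3.36 RPKM on AMPH (-0.696 ± 0.11, adjusted p = 0.00692), and eys, which builds the space between photoreceptor membranes, was at 51.2, 49.4 and 47.5 RPKM on vehicle and at 34.8, 35.1, 34.8 and 36.6 RPKM on AMPH (-0.47 ± 0.08, adjusted p = 0.0132). None of the photoreceptor markers ninaE, trp, norpA, chp and Arr2 passed. The changes of ninaE, trp and Arr2 were -0.02, -0.06 and 0.10. Those of norpA and chp were -0.47 and -0.43 (adjusted p of 0.135 and 0.21), below the median of the phototransduction genes. Odorant-binding proteins fell in 15 of 29 cases (51.7%, against 10.8% of all genes) and rose in none, with a median of -0.61 and 8 to 14 falls in the fits that left out 1 library. Obp44a was at 770.2, 563 and 1008 RPKM on vehicle and at 149, 161, 99.2 and 242 RPKM on AMPH (-2.29 ± 0.31, adjusted p = 0.0041), and vehicle replicate 1, at 351 RPKM, lay between the groups. Obp28a was at 129.7, 162 and 223 RPKM on vehicle and at 66.4, 50.1, 45.1 and 37.2 RPKM on AMPH (-1.76 ± 0.23, adjusted p = 0.00376). Of the antennal markers lush, Obp83a and Obp19d fell, Obp83b and the co-receptor Orco did not pass, and none was at 0. All of these but Orco are themselves odorant-binding proteins, so that they are no separate measure of the tissue. Whether the AMPH libraries held less antennal tissue was not tested. Odorant, gustatory and ionotropic receptors had 2 rises and 2 falls among 40.

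Cuticle proteins fell in 13 of 30 cases (43.3%) and muscle genes in 9 of 24 (37.5%), against 10.8% of all genes. Cpr65Au, a structural cuticle protein, was at 241, 289 and 399 RPKM on vehicle and at 39.8, 44.3, 41.1 and 66.4 RPKM on AMPH (-2.67 ± 0.23, adjusted p = 0.00106), and Cpr49Ae was at 27.4, 34.5 and 34.4 RPKM on vehicle and at 14.7, 16.3, 14.5 and 14.1 RPKM on AMPH (-1.05 ± 0.11, adjusted p = 0.00173). The medians were -0.48 for cuticle and -0.49 for muscle, and the fits that left out 1 library called 4 to 14 falls among the cuticle genes and 7 to 11 among the muscle genes. Mhc, the muscle myosin heavy chain, was at 269.9, 228 and 318 RPKM on vehicle and at 80.4, 78.5, 77.1 and 97.7 RPKM on AMPH (-1.69 ± 0.15, adjusted p = 0.00106), and the light chain Mlc2 was at 225, 197 and 285 RPKM on vehicle and at 134, 119.6, 90.6 and 122 RPKM on AMPH (-1.01 ± 0.18, adjusted p = 0.0123). Zasp66, a protein of the Z-disc, was the only muscle gene of the list that rose, at 132, 146 and 144 RPKM on vehicle and at 272, 281, 203 and 282 RPKM on AMPH (0.86 ± 0.15, adjusted p = 0.0107). The muscle markers given above moved with this group, Mhc and Mlc2 being among them, and the share of muscle in each head was not tested.

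**Figure D5:**
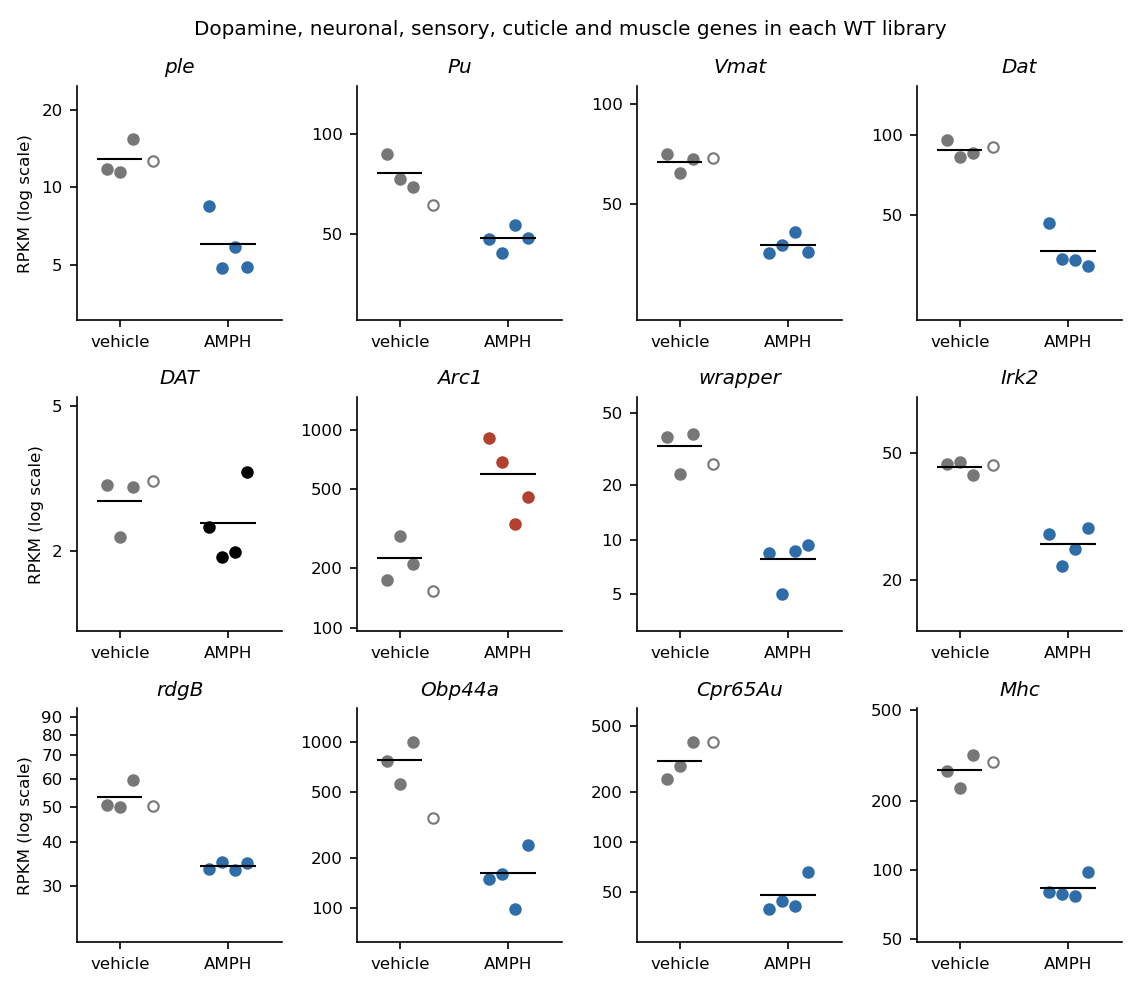
Level of 12 dopamine, neuronal, sensory, cuticle and muscle genes in each WT library (y axis, RPKM on a log scale). Points and bars are as in the plot of detoxification genes, and black AMPH points mark a gene that did not pass. DAT overlaps between the groups, Arc1 is higher on AMPH, and the other 10 genes are lower without overlap.

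Immune genes passed in both directions, in groups of few members. Of 11 bomanins, short peptides that the Toll pathway induces, 2 rose (18.2%, against 6.93% of all genes) and none fell. The changes of 7 were above 0 and those of 4 below, and the fits that left out 1 library called 0 to 6 rises. BomS2 was at 212, 349 and 269 RPKM on vehicle and at 730.2, 3113, 1200.3 and 637 RPKM on AMPH (2.08 ± 0.51, adjusted p = 0.0403), and was not past the threshold without WT vehicle replicate 2 or 4, with an adjusted p of up to 0.133. BomS3 was at 182, 285 and 260.02 RPKM on vehicle and at 559.9, 1631, 504 and 446 RPKM on AMPH (1.497 ± 0.44, adjusted p = 0.066), and was not past the threshold without WT vehicle replicate 2, 3 or 4, with an adjusted p of up to 0.197. AMPH replicate 2 was far above the other AMPH libraries for both, and 5 of the 11 rose when vehicle replicate 1 was added. Of 8 antimicrobial peptides, 3 fell (37.5%, against 10.8% of all genes), or 1 to 3 in the fits that left out 1 library, and 3 of the 8 changes were above 0. The largest of these falls was that of Drsl4, a relative of drosomycin, at 29.1, 39.8 and 35.9 RPKM on vehicle and at 5.71, 1.896, 0.671 and 1.75 RPKM on AMPH (-3.53 ± 0.40, adjusted p = 0.00227). Drosomycin itself, Drs, was at 9.76, 9.62 and 18.02 RPKM on vehicle and at 4.16, 10.2, 4.27 and 4.20 RPKM on AMPH (-1.04 ± 0.32, adjusted p = 0.0801), with AMPH replicate 2 within the vehicle range. It was not past the threshold without WT vehicle replicate 2, 3 or 4 or WT AMPH replicate 1, 3 or 4, with an adjusted p of up to 0.24, and had an adjusted p of 0.381 with vehicle replicate 1 added. The thioester protein Tep4 was at 90.01, 67.2 and 58.7 RPKM on vehicle and at 17.7, 10.5, 27.8 and 34.6 RPKM on AMPH (-1.73 ± 0.36, adjusted p = 0.0228), and TotX, of the stress-induced Turandot family, was at 5.92, 4.96 and 3.87 RPKM on vehicle and at 1.18, 1.82, 0.773 and 1.48 RPKM on AMPH (-1.36 ± 0.19, adjusted p = 0.00507), which did not pass when all 4 groups of the series shared 1 fit (adjusted p = 0.358). Vehicle replicate 1 was low for Tep4, TotX and Drs as well, at 28.8, 1.02 and 3.04 RPKM.

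Of 13 clock genes, 3 rose (23.1%, against 6.93% of all genes) and 5 fell (38.5%, against 10.8%). The repressor cwo was at 18.99, 14.4 and 14.6 RPKM on vehicle and at 42.7, 49.1, 60.2 and 42.7 RPKM on AMPH (1.54 ± 0.16, adjusted p = 0.00139), and cry, the blue light receptor of the clock, was at 83.5, 105 and 94.5 RPKM on vehicle and at 63.7, 56.6, 66.8 and 63.99 RPKM on AMPH (-0.58 ± 0.12, adjusted p = 0.0196). The clock-controlled feeding gene to was at 69.6, 120.0 and 100.04 RPKM on vehicle and at 33.2, 10.5, 19.1 and 38.0 RPKM on AMPH (-2.01 ± 0.41, adjusted p = 0.0206). All 3 passed in every fit that left out 1 library. Genes of juvenile hormone held 2 rises and 2 falls among 10, or 20% each. Jheh1, an epoxide hydrolase that degrades the hormone, was at 44.3, 58.2 and 58.6 RPKM on vehicle and at 109.9, 145, 128 and 104 RPKM on AMPH (1.17 ± 0.16, adjusted p = 0.00425), its relative Jheh3 was at 25.03, 27.02 and 35.3 RPKM on vehicle and at 15.1, 10.4, 10.3 and 16.3 RPKM on AMPH (-1.11 ± 0.19, adjusted p = 0.0115), and jhamt, which completes its synthesis, was at 4.78, 4.46 and 6.65 RPKM on vehicle and at 2.27, 2.64, 1.796 and 1.79 RPKM on AMPH (-1.004 ± 0.16, adjusted p = 0.00852). Kr-h1, a transcription factor that the hormone induces, was at 22.4, 19.5 and 20.5 RPKM on vehicle and at 39.7, 39.1, 44.1 and 31.6 RPKM on AMPH (0.86 ± 0.13, adjusted p = 0.00583).

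Some of the largest changes fell outside these groups. CG11425 had the largest rise by the rule used, at 1.67, 1.06 and 1.55 RPKM on vehicle and at 30.96, 202, 216 and 68.1 RPKM on AMPH (5.36 ± 0.63, adjusted p = 0.00245). CG10383 was at 10.8, 15.3 and 17.4 RPKM on vehicle and at 139, 274, 178 and 192 RPKM on AMPH (3.65 ± 0.24, adjusted p = 0.000373), and CG15784 was at 30.9, 61.9 and 44.4 RPKM on vehicle and at 237, 643, 456 and 355 RPKM on AMPH (3.14 ± 0.35, adjusted p = 0.00211). The rise of phu started from uneven vehicle libraries, at 47.2, 26.7 and 6.22 RPKM on vehicle and at 121, 434, 803 and 281 RPKM on AMPH (3.96 ± 0.76, adjusted p = 0.0164), with vehicle replicate 1 at 0.805 RPKM. CG7299 had the largest fall, at 45.9, 121 and 129.5 RPKM on vehicle and at 3.62, 0.789, 3.04 and 4.61 RPKM on AMPH (-4.62 ± 0.47, adjusted p = 0.00139). Jhbp13, named as a juvenile hormone binding protein, was at 193, 226 and 164 RPKM on vehicle and at 32.8, 14.1, 22.8 and 28.5 RPKM on AMPH (-2.98 ± 0.27, adjusted p = 0.00106), CG9747 was at 26.3, 46.96 and 75.9 RPKM on vehicle and at 3.22, 3.33, 3.996 and 4.69 RPKM on AMPH (-3.28 ± 0.31, adjusted p = 0.00112), and CG14419 was at 7.18, 23.1 and 54.6 RPKM on vehicle and at 0.895, 0.905, 1.56 and 1.75 RPKM on AMPH (-3.31 ± 0.55, adjusted p = 0.00934). Lack of overlap between the groups was part of the rule that chose these 8 genes. All 8 passed in each fit that left out 1 library.

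Many of the genes that rose shared an order of the AMPH libraries. Replicates 2 and 3 both exceeded replicates 1 and 4 in 10 of the 12 largest rises, in 81 of the 164 genes that rose by at least 1 (49.4%), in 253 of all 695 genes that rose (36.4%) and in 2073 of the 10032 genes tested (20.7%). The depth of replicates 2 and 3 was 52.9 and 38.6 M reads and that of replicates 1 and 4 was 55.0 and 62.8 M reads. Vehicle replicate 1 lay within or past the AMPH range in 30 of the 695 rises and 122 of the 1085 falls.

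Of 13 genes that the study names, Thor, trbl and S6k rose and to and sm fell in WT heads. The RNA-binding protein sm was at 49.9, 47.6 and 41.1 RPKM on vehicle and at 30.9, 26.8, 28.0 and 29.9 RPKM on AMPH (-0.66 ± 0.10, adjusted p = 0.00821). The ribosomal genes RpL8, RpS13, RpS23 and RpS26 had changes of -0.08, 0.06, -0.10 and 0.41 with overlapping groups, and none passed (adjusted p of 0.903, 0.904, 0.823 and 0.447). RpS26, the nearest to a change, was at 1749, 2343 and 1675 RPKM on vehicle and at 2615, 3082, 3424 and 1476 RPKM on AMPH. The kinase hppy and the nuclear receptor Eip75B had changes of -0.13 and 0.10 (adjusted p of 0.426 and 0.704), and srl, the fly PGC-1, one of 0.11 (adjusted p = 0.53). The study took Thor, trbl and to from these RNA samples, so that their changes are no independent evidence. It took the ribosomal genes, S6k, hppy, Eip75B and srl from a separate association screen of AMPH sensitivity, and sm from both.

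To ask whether a response differed where the dopamine transporter was lost, the change in WT was set against the change in the DAT mutant in 1 fit of 13 libraries. Of 10333 genes tested, 19 (0.184%) passed. An unadjusted p under 0.05 was found for 574, and chance alone gives a count not far below that. Of the 19, 11 were among the 1780 genes called in WT. The count was 6 when all 15 libraries entered, and 8 without DAT mutant vehicle replicate 1, 10 without WT vehicle replicate 3 or 4, DAT mutant vehicle replicate 3 or DAT mutant AMPH replicate 3, 12 without DAT mutant vehicle replicate 4, and it rose to 30 when WT AMPH replicate 1 was left out. The smallest adjusted p was that of GstE1, an epsilon class glutathione S-transferase, which changed by -0.39 in WT, where it did not pass (adjusted p = 0.241), and by 3.84 in the mutant (difference -4.23 ± 0.34, adjusted p = 0.000274). In WT heads GstE1 was at 21.2, 23.7 and 29.6 RPKM on vehicle and at 13.5, 24.5, 20.3 and 17.4 RPKM on AMPH, with overlapping groups. GstE1 also passed with all 15 libraries (adjusted p = 2.97e-05), as did CG9150 (0.0366), CG15093 (0.0472), CG11854 (0.0472), CG6908 (0.0664) and to (0.0918). CG6908 rose in both strains, by 1.85 in WT and 3.42 in the mutant. CG9150 changed by 1.39 and -0.73, and to by -2.01 and 1.29. CG15093 changed by -0.46 and -2.28 and CG11854 by -0.50 and 1.72, and neither passed in WT. Of genes with a clock role, cwo changed by 1.54 in WT and 0.33 in the mutant (difference 1.21 ± 0.20, adjusted p = 0.0485), and Cipc, whose mammalian homologue restrains CLOCK, by 0.76 and -0.32 (difference 1.07 ± 0.16, adjusted p = 0.0292). Cipc, GstE1 and the 4 genes with CG names were described after their values were seen. Arc1 rose more in the mutant, by 4.04 against 1.34 (difference -2.70 ± 0.46, adjusted p = 0.0496). Of the genes given above that rose in WT, GstD2, Cyp6a8, AOX1, Thor, Sesn and REPTOR were not among the 19. This does not show that their responses were equal. The change in the mutant was 3.49 for GstD2, 4.50 for Cyp6a8, 3.39 for AOX1, 1.57 for Thor, 0.18 for Sesn and 0.61 for REPTOR. With all 15 libraries the adjusted p of the difference was 0.885 for cwo, 0.885 for Cipc and 0.409 for Arc1.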

How the data were processed

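The authors deposited RPKM values per transcript, made from Ion Torrent reads after mapping with tmap to the dm3 genome. The counting step is not given in the sources used here. The 15 single-library files equalled the series table of 18960 transcripts and 11257 genes, and no column was left unmapped. The study used a negative binomial count test. As the deposited unit is RPKM, limma 3.58.1 (R 4.3.3, mean-variance trend) was run on log2(RPKM + 1), with Benjamini-Hochberg adjustment and a threshold of 0.1. One transcript per gene (highest mean RPKM) was tested where at least 3 of the 7 libraries reached 1 RPKM. All 4 groups (13 libraries) were fitted together for the difference between strains. The vehicle library kept aside is one that the study's own comparison appears to have left out, judged from its group means, and no reason is given. Symbols came from current annotation tables (10188 genes by identifier and 653 by an older name), and coordinates are those of the file, counted from 1. Depth was estimated from the spacing of the smallest values of 260 transcripts with 1 exon.

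Genes were named by rule: the 12 largest rises and falls without overlap at a mean RPKM of at least 5, up to 4 members per direction of each of 53 gene lists, and 13 genes the study names. The libraries, lists and rules were chosen with earlier results of these data known. The code was tested on simulated data, and tables were written with Python 3.11.15, numpy 2.4.6, pandas 2.3.3 and matplotlib 3.10.9. Alternatives were other vehicle libraries, each library left out, scaling, filter, pseudocount, transcripts, trend, threshold, a shared fit of 4 groups and a replicate block. Columns of the DAT mutant were used for the difference between strains and for the shared fit. p-values measure the spread between single flies.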

Additional observations from a re-analysis of the deposited data

Results flagged for a closer look

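In 121 of the genes named above, the 4 AMPH libraries were examined for one that stood apart, by its gap to the nearest of the others over the whole range. This was so in 10 of them, and chance alone gives about 1 in 20 groups. AMPH replicate 1 stood apart for trbl (16.0 RPKM, below the others), Dat (46.8 RPKM, above) and DnaJ-1 (49.6 RPKM, above). AMPH replicate 2 was above the others for BomS3 (1631 RPKM) and Drs (10.2 RPKM). AMPH replicate 3 was above them for GstE7 (67.2 RPKM) and below them for Zasp66 (202.6 RPKM). AMPH replicate 4 was above them for Mhc (97.7 RPKM), eys (36.6 RPKM) and srl (4.64 RPKM).

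For 10 genes the test of the difference itself found unequal responses in WT and the DAT mutant. The response in WT minus that in the mutant was 1.21 for cwo (adjusted p = 0.0485), 1.20 for Kr-h1 (adjusted p = 0.024), -3.30 for to (adjusted p = 0.0399), -2.70 for Arc1 (adjusted p = 0.0496), -4.23 for GstE1 (adjusted p = 0.000274), -1.57 for CG6908 (adjusted p = 0.0292), 2.11 for CG9150 (adjusted p = 0.0399), 1.83 for CG15093 (adjusted p = 0.0399), -2.22 for CG11854 (adjusted p = 0.0582) and 1.07 for Cipc (adjusted p = 0.0292), each from limma over 10333 genes. With all 15 libraries the adjusted p was 0.885 for cwo, Kr-h1 and Cipc and 0.409 for Arc1, and the other 6 passed. Those libraries include DAT mutant vehicle replicate 2, whose median log2(RPKM + 1) was 3.38, against 3.85 to 4.02 in the other libraries of the series. The part this played was not tested.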

How the results depend on the processing

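The 1780 genes called (695 higher, 1085 lower) became 896 to 2192 (310 to 942 higher, 561 to 1250 lower) when each library was left out in turn, with the lowest counts without a vehicle library. They became 1080 (396 and 684) at an adjusted p under 0.05, and 3868 (1266 and 2602) when all transcripts were tested in place of 1 per gene. Centring with all 4 vehicle libraries, an alternative chosen after seeing the data, gave 2472, of which 1194 were higher and 1278 lower. Under the other alternatives the total stayed within 1.5 times, from 1422 at a mean RPKM of at least 5 to 2521 with all 4 vehicle libraries. The difference between strains, 19 genes, went to 6 with all 15 libraries and to 8 to 30 when each library was left out. Same-numbered WT libraries did not deviate together (correlations of -0.11, 0.114 and 0.0434 for numbers 2 to 4), so that they share only a number. With the number as a replicate block 1650 genes passed (743 higher, 907 lower), and 27 for the difference between strains. Of the 196 genes named under the rule that passed, 185 also did with all 4 vehicle libraries, 188 after centring, 185 after quantile normalization, 194 with a pseudocount of 0.1, 192 in the fit of 4 groups and 169 with the replicate block. Without vehicle replicate 2, 3 or 4, 124, 126 and 115 of the 191 that could be tested did so, and without an AMPH library 153 of 196 to 184 of 195. None changed direction under any alternative. With 3 vehicle flies and 4 AMPH flies, small changes such as those of ribosomal, synaptic and mitochondrial genes passed or missed the threshold with 1 library.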

Other observations

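The counts of the other groups, beside 6.93% higher and 10.8% lower over all genes, were as follows. Of 13 ecdysone genes 1 rose and 2 fell, of 38 genes of RNA polymerase II and Mediator 1 rose, of 33 aminoacyl-tRNA synthetases 2 rose, of 14 genes of folding in the endoplasmic reticulum 1 rose, and of 21 subunits of the vacuolar proton pump 1 fell. Some of these groups hold a gene described above. Of 13 genes of fat mobilization and oxidation 2 rose and 1 fell, of 8 maltases and amylases 1 rose and 2 fell, and of 9 genes of trehalose and glycogen 1 rose and 2 fell. In gluconeogenesis 1 of 5 fell, among storage proteins 1 of 2, among peptidoglycan recognition proteins 1 of 9 and among thioester proteins and lysozymes 1 of 4. Of 4 Turandot genes 1 rose and 1 fell. No serine protease of the gut reached the level at which genes were tested, and none of the 5 markers of the male reproductive tract was in the table. The 4 haemocyte markers summed to 26.2 to 28.9 RPKM on vehicle and 24.05 to 32.8 RPKM on AMPH, with Pxn called lower. The yolk protein genes Yp1 to Yp3, which fat body of females makes in quantity, summed to 39.1 to 115 and 46.6 to 61.2 RPKM in these males.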
